A study of Rattus norvegicus with 12 samples.

Results

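Complement and coagulation genes were followed here across hepatocyte cultures of male and female rats. The set holds 40 genes of these cascades, chosen by name from the components and inhibitors known in plasma. A gene was found through the name that the array files give its probe. All 40 had a tested probe, out of 26543 genes tested, and 58 probes in all carried their names. Hepatocytes of 11-week-old Sprague-Dawley rats were cultured and then kept for 6 h with the synthetic glucocorticoid dexamethasone or with vehicle, and each RNA sample was read on its own 1-colour array. The 4 groups of 3 arrays were male vehicle (0.01% ethanol), male dexamethasone (100 nM, which the labels write as "nm"), female vehicle (0.01% ethanol) and female dexamethasone (100 nM). The groups shared strain, age, a liver digestion with collagenase, plating in serum and a further culture step without serum. Sex was taken from the sample titles, since the sex field reads male for all 12 samples.

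Complement is a chain of plasma proteases and binding proteins that tags foreign surfaces with fragments of C3 and can end in a pore made of the terminal components. It starts at antibody through C1r and C1s, at sugars through mannose-binding lectins and their proteases, or on C3 itself through factors B and D. Coagulation is a second chain, in which factors activate one another up to thrombin, while proteins C and S and the serpins brake it and plasminogen, once activated, dissolves the clot. The hepatocyte makes most of these proteins and secretes them into plasma. Glucocorticoids are known to change the output of several plasma proteins by the liver.

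Levels are log2 signals relative to the 75th percentile of the array, so that 0 is the level of that percentile. They were set against each other within a gene only. Of the 40 members, 37 were well above background on all 12 arrays. C1s and Cfi each lacked 1 male vehicle array, replicates 1 and 3 in that order, whose spot was marked as an outlier, so their male vehicle means rest on 2 arrays. F11 was not well above background on male vehicle replicate 1. No member was saturated. All 8 hepatocyte markers listed were above background on every array, and so were 10 of 11 macrophage markers. Between 45.7% and 66.5% of probes were well above background on the 4 arrays of slide 1, which held all male vehicle arrays and male dexamethasone replicate 1, and between 72.4% and 80.4% on the other 8. The glucocorticoid targets Fkbp5, Tat and Tsc22d3 rose by 1.31 to 3.16 log2 units in both sexes.

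The first comparison asked what dexamethasone did to these genes in male cultures. Among the members F11 alone passed the test, and it rose. That is 1 of 40 members, or 2.5%, where 10.1% of all genes tested passed, 5.21% higher and 4.89% lower (limma, Benjamini-Hochberg adjusted p under 0.05). The members' median difference was -0.05 log2 units, beside -0.07 over all genes, and 31 of the 40 differences were within 0.5 log2 units of 0. Groups did not overlap for 7 members, 17.5%, beside 25.6% of all genes. In female cultures Pros1 alone passed, and it rose. This again is 1 of 40, beside 4.13% of all genes (3% higher and 1.13% lower, limma), with a median of 0.10 log2 units beside -0.02. Groups did not overlap for 10 members, 25%, beside 33.8% of all genes. With the replicate number as a block, 2 members passed in males, F11 and Plau, and 4 in females, F11, F5, Pros1 and Plau. With that block within each sex, chosen after seeing the data, F11, Plau, F5, F3 (-0.84, adjusted p = 0.0152) and Cfd (0.57, adjusted p = 0.0467) passed in males and F11, F5 and Plau in females. Of all 26543 genes, the fit with the block within each sex called 1909 higher and 2264 lower in males. In females it called 1136 higher and 657 lower. The count of all genes with the plain replicate block is not given here.

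**Figure D1:**
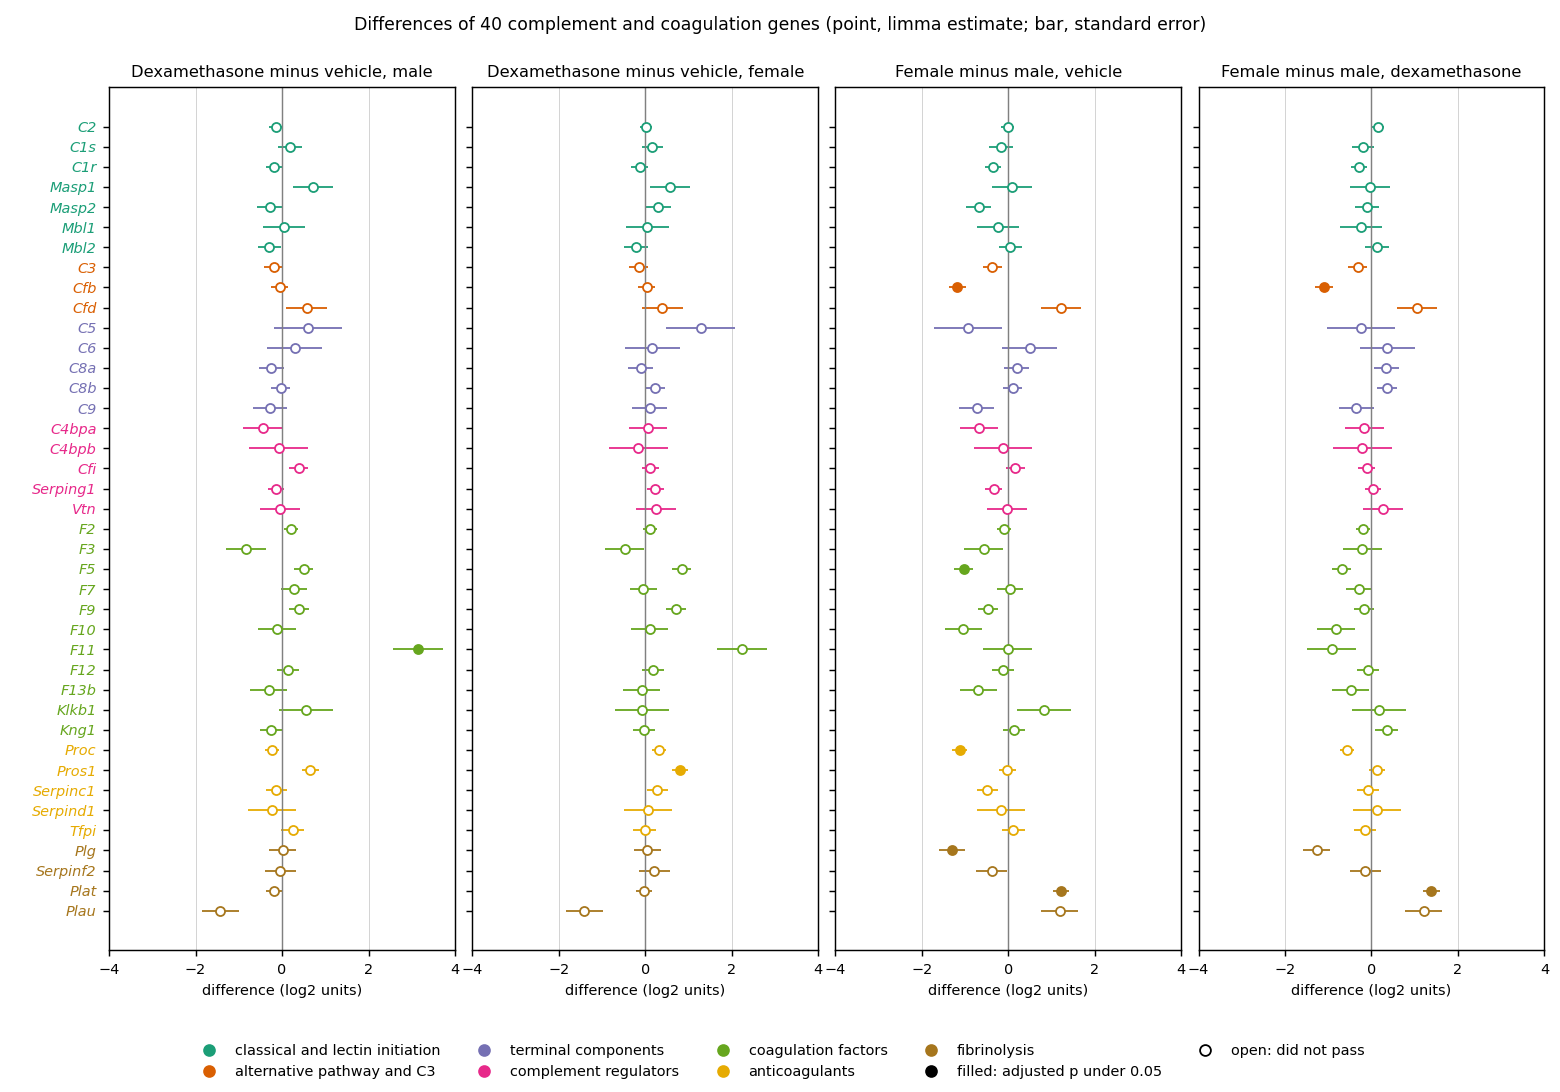
Each row is a member, coloured by its role, and each panel a comparison; the horizontal axis is the difference in log2 units, points are limma estimates from 3 arrays a group and bars standard errors. Filled points pass an adjusted p of 0.05: F11 at 3.15 in the male response, Pros1 at 0.81 in the female response, 5 members between the sexes in vehicle and 2 in dexamethasone.

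F11 encodes factor XI, a protease of the contact pathway that activates factor IX. Its 60-base probe, shown because the largest response among the members rests on it, lies at chr16:50296006-50296065 on the plus strand of rn3.
F11: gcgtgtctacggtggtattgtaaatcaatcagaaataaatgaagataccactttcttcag
On the male vehicle arrays F11 was at -3.53, -0.68 and -2.35 log2 units, and on the male dexamethasone arrays at 1.04, 1.39 and 0.46. Every dexamethasone array lay above every vehicle array, and the vehicle arrays were far apart. The level rose by 3.15 log2 units (SE 0.57), or 8.87-fold, with an adjusted p of 0.00914 (limma), and the call was kept without each of the 12 arrays in turn. The size was less firm: it was 2.48 without male vehicle replicate 1 and 3.90 without male vehicle replicate 2. The male vehicle SD was 1.43, and a fit on the 2 male groups alone, which uses only their own spread, gave an adjusted p of 0.0818. With the slide as a block the difference was 3.22 (adjusted p = 0.109), and within slide 1, where only male dexamethasone replicate 1 stands against the vehicle arrays, it was 3.22 (SE 1.02, adjusted p = 0.502).

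In female cultures F11 was at -2.37, -1.80 and -2.43 in vehicle and at 0.28, 0.24 and -0.41 in dexamethasone. Again no dexamethasone array came down to a vehicle array. The difference of 2.24 log2 units (SE 0.57), 4.73-fold, missed the threshold in the limma fit (adjusted p = 0.0548) and passed with the replicate number as a block (adjusted p = 0.0291). It also passed without male vehicle replicate 1 (adjusted p = 0.0184) or male vehicle replicate 2 (adjusted p = 0.0105). Within slide 3, on which 1 female vehicle array stands with all 3 female dexamethasone arrays, it was 2.47 (SE 0.34, adjusted p = 0.0407). The female minus male difference of the F11 responses was -0.91 (SE 0.81, limma adjusted p = 0.745).

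Pros1 encodes protein S, the cofactor of activated protein C. Its probe is shown because the 1 call among members in females rests on it, and the files place it on rn3 sequence not assigned to a chromosome.
Pros1: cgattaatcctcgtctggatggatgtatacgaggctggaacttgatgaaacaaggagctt
Female vehicle arrays were at 1.35, 1.45 and 1.20 and female dexamethasone arrays at 2.30, 2.09 and 2.04. The groups did not overlap, and both were tight. Pros1 rose by 0.81 log2 units (SE 0.19), 1.75-fold, with an adjusted p of 0.0421 (limma). The call was narrow: it was lost without any single female array, without male dexamethasone replicate 2 and without male dexamethasone replicate 3, with adjusted p from 0.0548 to 0.165. The call was also lost with the replicate number as a block within each sex, chosen after seeing the data (adjusted p = 0.0589). Within slide 3 the difference was 0.94 (SE 0.18, adjusted p = 0.0694). In males Pros1 was at 0.97, 1.66 and 1.45 in vehicle and at 2.16, 2.05 and 1.83 in dexamethasone, without overlap. That difference was 0.66 (SE 0.19, limma adjusted p = 0.0546), and 0.81 without male vehicle replicate 2 (adjusted p = 0.0306). A second Pros1 probe stayed too dim to count as above background on all 12 arrays.

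F5, factor V, is the cofactor that factor Xa needs to make thrombin. It was at 2.36, 2.74 and 2.30 in male vehicle and at 2.76, 3.35 and 2.78 in male dexamethasone, a difference of 0.50 (SE 0.22, limma adjusted p = 0.180). It passed with the replicate number as a block within each sex, an alternative chosen after seeing the data (adjusted p = 0.0369). A second, dim F5 probe was above background on 0 of 3 male vehicle arrays and on all male dexamethasone arrays, where it was at least 1.80-fold higher (limma adjusted p = 0.00661 among probes). In females it was at 1.66, 1.40 and 1.23 in vehicle and at 2.57, 2.23 and 2.02 in dexamethasone. Dexamethasone arrays were the higher ones in both sexes, with no overlap, although the male gap was small. The female difference was 0.84 (SE 0.22, limma adjusted p = 0.0639). It passed with the replicate number as a block (adjusted p = 0.0418) and without male dexamethasone replicate 2 (adjusted p = 0.0463).

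Plau encodes urokinase, which turns plasminogen into plasmin; it was singled out after its values were seen, since its response was alike in both sexes and rested on the block. Male vehicle arrays were at -1.74, -0.69 and -0.28 and male dexamethasone arrays at -2.74, -1.99 and -2.27. Female vehicle arrays were at -0.14, 0.43 and 0.55 and female dexamethasone arrays at -1.97, -0.73 and -0.67. In each sex every dexamethasone array was below every vehicle array, and in each group replicate 1 was the lowest. The differences were -1.43 in males (SE 0.43, limma adjusted p = 0.0600) and -1.41 in females (SE 0.43, limma adjusted p = 0.101). With the replicate number as a block both passed, with adjusted p of 0.00544 in males and 0.00778 in females. The male difference also passed without male vehicle replicate 1 (-1.85, adjusted p = 0.0243) and without female dexamethasone replicate 1 (adjusted p = 0.0422).

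**Figure D2:**
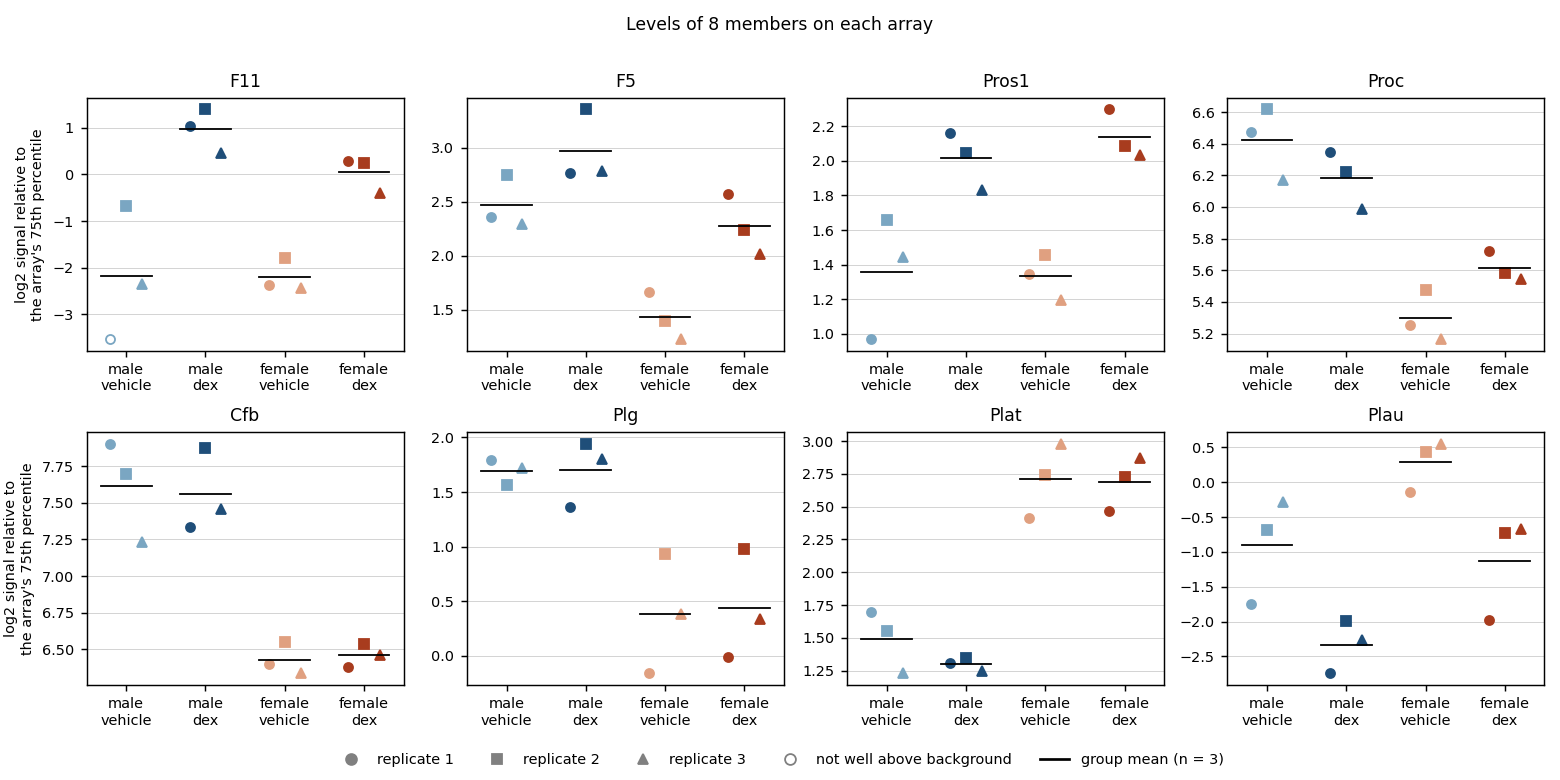
Log2 signal relative to the array's 75th percentile (vertical axis, a separate scale in each panel) of 8 members on each of the 12 arrays, by group, with symbols for the replicate number, a line at each group mean and an open symbol for an array not well above background. F11 and Pros1 stand higher under dexamethasone in both sexes and Plau lower, while Proc, Cfb and Plg stand higher in males and Plat higher in females in both treatments.

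The other members are given by role. Among the 7 that start the classical and lectin pathways, differences ran from -0.30 to 0.71 in males and from -0.21 to 0.58 in females, and none passed. C3, Cfb and Cfd, of the alternative pathway, lay between -0.19 and 0.57 in males and between -0.15 and 0.40 in females. The 5 terminal components, from C5 to C9, and the 5 complement regulators likewise held no call, with medians of -0.04 and -0.08 log2 units in males and of 0.16 and 0.12 in females. C5, which starts the pore, gave the largest of these values, 1.28 in females (SE 0.79, limma adjusted p = 0.487), and female vehicle replicate 2 stood far below the other arrays. Its arrays were at 1.00, -2.19 and 1.34 in female vehicle and at 0.87, 1.74 and 1.39 in female dexamethasone, while the other C5 probes were both at -0.04 on female vehicle replicate 2. F11 was the single call among the 11 coagulation factors in males, and no factor passed in females. F9, factor IX, which factor XI activates, was at -1.06, -1.17 and -0.96 in male vehicle and at -0.92, -0.27 and -0.83 in male dexamethasone. It did not pass in males (0.39, SE 0.23, limma adjusted p = 0.312) or in females (0.70, SE 0.23, adjusted p = 0.131), though its groups did not overlap in either sex. Without female vehicle replicate 2 the female difference was 0.93 and passed (adjusted p = 0.0481). F9 was picked out here after its values were seen, as was C5.

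Whether the response differed between the sexes was tested as an interaction. No member passed (limma), against 0.105% of all genes. An unadjusted p under 0.05 was seen in 3210 of 26543 genes and in 1 of the 40 members. That member was Proc, protein C, whose activated form cuts factors Va and VIIIa. Its interaction was 0.56 log2 units (SE 0.24, unadjusted p = 0.0405, limma adjusted p = 0.384). The median interaction was 0.15 log2 units over the members and 0.07 over all genes.

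Females were then compared with males under vehicle. Plg, Cfb, Proc and F5 were lower in female cultures and Plat was higher, by 2.05-fold to 2.47-fold. These 5 calls are 12.5% of the members, a share close to the 13.8% of all genes called in that comparison, 5.82% higher and 7.95% lower. The median difference was -0.15 log2 units, beside -0.06 over all genes. Groups did not overlap for 10 members, 25%, beside 31.1% of all genes. Under dexamethasone Cfb was again lower and Plat again higher, 5% of the members beside 2.9% of all genes (1.18% higher and 1.73% lower), and the median was -0.15 beside 0.02. Groups did not overlap for 9 members, 22.5%, beside 32.3%. With the replicate number as a block 5 passed in dexamethasone, Plat, Plau and Cfd higher and Cfb and Plg lower in females. The share of all genes with that block is not given here.

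Cfb encodes factor B, which supplies the protease of the alternative pathway's convertase. Its probe spans chr20:4077203-4077346 on rn3 and is shown because Cfb passed in both treatments.
Cfb: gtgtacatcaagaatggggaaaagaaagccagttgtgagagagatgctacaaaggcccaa
Cfb was at 7.90, 7.70 and 7.23 in male vehicle and at 7.34, 7.88 and 7.46 in male dexamethasone. It was at 6.40, 6.55 and 6.34 in female vehicle and at 6.38, 6.54 and 6.46 in female dexamethasone. All 6 male arrays were above all 6 female arrays, and dexamethasone made no called difference in either sex. Females were lower by 2.27-fold in vehicle (-1.18, SE 0.20, limma adjusted p = 0.00519) and by 2.14-fold in dexamethasone (-1.10, SE 0.20, adjusted p = 0.0183). The vehicle call was kept without each of the 12 arrays in turn; the dexamethasone call was lost without male dexamethasone replicate 2 or 3 or any female dexamethasone array, with adjusted p from 0.0522 to 0.0747.

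Plat encodes tissue plasminogen activator. Its probe spans chr16:73717667-73717812 on the minus strand of rn3, and Plat too passed in both treatments.
Plat: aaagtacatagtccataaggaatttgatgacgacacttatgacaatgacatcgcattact
Plat was at 1.70, 1.55 and 1.23 in male vehicle and at 1.31, 1.35 and 1.25 in male dexamethasone. The female arrays were at 2.41, 2.74 and 2.98 in vehicle and at 2.46, 2.73 and 2.87 in dexamethasone. Every female array was above every male array. Females were higher by 2.33-fold in vehicle (1.22, SE 0.19, limma adjusted p = 0.00372) and by 2.62-fold in dexamethasone (1.39, SE 0.19, adjusted p = 0.00574), and both calls were kept without each of the 12 arrays in turn. Plau was also higher in females, with differences of 1.19 (SE 0.43, limma adjusted p = 0.0901) in vehicle and 1.21 (SE 0.43, adjusted p = 0.161) in dexamethasone and no overlap in either. The first passed without male vehicle replicate 3 (adjusted p = 0.0492), and with the replicate number as a block the second had an adjusted p of 0.0135.

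Most markers of stellate cells and fibroblasts were higher in females, as Plat and Plau were. Of 7 measured, 4 were higher in females in vehicle and 2 in dexamethasone. Their summed linear signal, relative to the 75th percentile, was 4.79 to 7.49 on male vehicle arrays, 8.46 to 14.5 on female vehicle arrays, 2.78 to 6.34 on male dexamethasone arrays and 5.28 to 7.10 on female dexamethasone arrays. In male vehicle, 0 of 3 arrays had Lrat or Pdgfrb above background, and the other 5 markers were above it on all 3. In male dexamethasone Lrat was above background on 3 arrays and Pdgfrb on 2. The Pdgfrb means were alike, -5.75 in male vehicle and -5.83 in male dexamethasone. All male vehicle arrays lay on slide 1, where fewer probes were above background, so their absence there does not show that these cells were absent. Of 11 macrophage markers 1, Csf1r, passed in vehicle and was higher in females. The estimates of 9 of the 11 were above 0 in vehicle and of 8 in dexamethasone, with medians of 0.86 and 0.77 log2 units, while their summed signal was 43.8 to 88.6 in male vehicle and 40.2 to 91.4 in female vehicle. Of the 8 hepatocyte markers none passed between the sexes, with medians of -0.47 in vehicle and -0.18 in dexamethasone and sums of 1062 to 1503 in male vehicle and 732 to 960 in female vehicle. The part of other cells in these differences was not tested, and in bulk RNA fewer cells of a type and less RNA per cell cannot be told apart.

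Plg, plasminogen itself, was at 1.79, 1.57 and 1.72 in male vehicle, and at -0.16, 0.93 and 0.39 in female vehicle. Under dexamethasone it was at 1.36, 1.94 and 1.80 in males and at -0.01, 0.98 and 0.34 in females. The sexes did not overlap in either treatment. Females were lower by 2.47-fold in vehicle (-1.31, SE 0.31, limma adjusted p = 0.0201), a call lost without female vehicle replicate 1 (-1.03, adjusted p = 0.0758) or replicate 3 (adjusted p = 0.0574). Under dexamethasone the difference was -1.27 (SE 0.31, adjusted p = 0.0543), and 0.0191 was its adjusted p with the replicate number as a block. It also passed without female vehicle replicate 1 (adjusted p = 0.0489) or replicate 2 (adjusted p = 0.0410). So in the fibrinolysis group the substrate Plg was lower in female vehicle cultures and its activator Plat higher.

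Proc was at 6.48, 6.62 and 6.17 in male vehicle and at 5.25, 5.47 and 5.16 in female vehicle. Under dexamethasone the arrays were at 6.35, 6.22 and 5.99 in males and at 5.72, 5.58 and 5.55 in females. The gap between the sexes was wide in vehicle and smaller, still without overlap, in dexamethasone. Females were lower by 2.18-fold in vehicle (-1.12, SE 0.17, limma adjusted p = 0.00309), a call kept without each of the 12 arrays in turn, while the dexamethasone difference of -0.57 (SE 0.17, adjusted p = 0.101) did not pass. F5, whose values are given above, was lower in females by 2.05-fold in vehicle (-1.03, SE 0.22, limma adjusted p = 0.0144) and differed by -0.69 (SE 0.22, adjusted p = 0.127) in dexamethasone. The vehicle call of F5 was lost without female vehicle replicate 3 (-0.93, adjusted p = 0.0550). The second, dim F5 probe went the other way in vehicle. It was at -4.27, -5.12 and -4.50 in males, with 0 of 3 arrays above background, and at -3.84, -4.16 and -4.20 in females. Its dexamethasone means were -2.95 in males and -3.47 in females. The F5 call in vehicle thus rests on the brighter probe.

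Slide is a limit on every comparison of the sexes. No slide holds both sexes in the same treatment, so no value within a slide exists for them. With slide as a block no member passed in any of the 5 comparisons. Of all 26543 genes, that fit called 188 higher and 284 lower in the male response and 215 and 85 in the female response. Between the sexes it called 46 higher and 87 lower in vehicle and 8 and 14 in dexamethasone, and the interaction gave 2 and 0. Few genes of any kind thus passed with that block. In that fit the sexes in vehicle differed by -1.82 for Plg, -1.47 for Cfb, -1.24 for F5, -0.81 for Proc and 1.10 for Plat. Their adjusted p ran from 0.132 to 0.274 (limma). A fit on the 2 vehicle groups alone kept the calls of Cfb, Proc and Plat and lost those of F5 (adjusted p = 0.0597) and Plg (adjusted p = 0.0675).

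In the role groups without a call, the member with the smallest p was in each case one compared between the sexes in vehicle. Masp2, whose brightest probe is listed for the short lectin-pathway transcript MAp19, was at 3.95, 4.50 and 3.44 in male vehicle and at 3.28, 3.33 and 3.21 in female vehicle. Every female array was below the male ones (-0.69, SE 0.29, limma adjusted p = 0.133; -0.95 without male vehicle replicate 3, adjusted p = 0.0428). The other Masp2 probes overlapped between the sexes in vehicle, with means of -0.30, -0.30 and 1.66 in males and of -0.30, -0.77 and 1.53 in females. Under dexamethasone the brightest Masp2 probe was at 3.22, 4.24 and 3.56 in males and at 3.56, 3.58 and 3.59 in females, which overlap. C9, the protein that lines the terminal pore, was at 6.83, 8.23 and 7.16 in male vehicle and at 6.16, 7.18 and 6.67 in female vehicle (-0.73, SE 0.40, limma adjusted p = 0.251). It was at 6.95, 7.69 and 6.74 in male dexamethasone and at 6.32, 7.11 and 6.88 in female dexamethasone. In all 4 groups of C9 replicate 2 was the highest array. Serping1, the C1 inhibitor, was at 8.58, 9.21 and 8.72 in male vehicle, 8.93, 8.68 and 8.48 in male dexamethasone, 8.36, 8.67 and 8.45 in female vehicle and 8.77, 8.69 and 8.74 in female dexamethasone. Its sexes overlapped in both treatments (vehicle difference -0.34, SE 0.19, limma adjusted p = 0.260).

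Masp1 is 1 gene with several protein products. Alternative last exons give the proteases MASP-1 and MASP-3, and MASP-3 is known as the activator of pro-factor D. The array carries 5 Masp1 probes, which lie in a row along chromosome 11 of rn3. The files list probes 1 and 2 for the Masp1 mRNA and also for a MASP-3 mRNA, probes 3 and 4 for MASP-3 mRNAs alone and probe 5 for the Masp1 mRNA without a MASP-3 entry; which exons they hit is not stated here. Probe 5, the brightest, stands for the gene above. The sequences of probes 1, 2 and 3, which have at least 1 reading frame without a stop codon, show where the readings were taken, at chr11:79613904-79615074, chr11:79632701-79632760 and chr11:79638965-79639024.
Masp1 probe 1: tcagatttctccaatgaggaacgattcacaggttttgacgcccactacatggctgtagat
Masp1 probe 2: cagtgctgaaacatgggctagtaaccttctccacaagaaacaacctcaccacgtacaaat
Masp1 probe 3: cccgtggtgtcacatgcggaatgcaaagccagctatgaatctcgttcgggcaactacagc

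**Figure D3:**
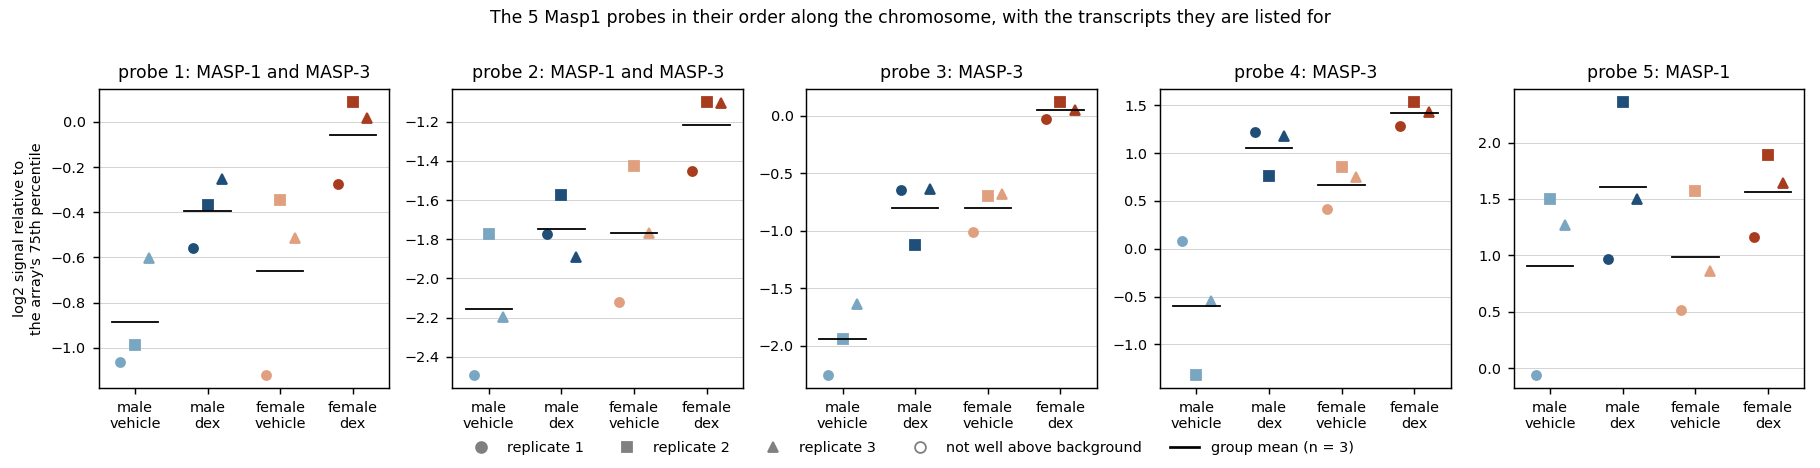
Log2 signal relative to the array's 75th percentile (vertical axis, a separate scale in each panel) of the 5 Masp1 probes on each of the 12 arrays, in chromosome order, with a line at each group mean. On probe 3 the male vehicle arrays, at -2.25 to -1.63, lie below all others and the female dexamethasone arrays, at -0.03 to 0.12, above all others.

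The probes were tested 1 by 1 among 30979 probes, of which 5.36% were called higher in the male response, 2.8% in the female response, 6.25% in females in vehicle and 1.23% in females in dexamethasone. The MASP-3 probes were singled out after the values were seen. Probe 3 was at -2.25, -1.94 and -1.63 in male vehicle, -0.65, -1.12 and -0.64 in male dexamethasone, -1.01, -0.70 and -0.68 in female vehicle and -0.03, 0.12 and 0.05 in female dexamethasone. Treated arrays were above untreated ones in each sex, and female arrays above male ones in each treatment. It rose by 1.14 in males (SE 0.20, limma adjusted p = 0.00746) and by 0.84 in females (SE 0.20, adjusted p = 0.0427), and was higher in females by 1.14 in vehicle (adjusted p = 0.00561) and by 0.85 in dexamethasone (adjusted p = 0.0475). The male response and the vehicle difference were kept without each of the 12 arrays in turn. The female response was lost without any single female array or male dexamethasone replicate 3 (adjusted p from 0.0590 to 0.173). The dexamethasone difference was lost without any one of 10 arrays, all but male vehicle replicates 1 and 3 (adjusted p from 0.0513 to 0.175).

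Probe 4 was at 0.08, -1.32 and -0.55 in male vehicle, 1.22, 0.76 and 1.18 in male dexamethasone, 0.42, 0.85 and 0.75 in female vehicle and 1.29, 1.53 and 1.43 in female dexamethasone. Male vehicle was again the lowest group and female dexamethasone the highest, without overlap with any other group. It rose by 1.65 in males (SE 0.30, limma adjusted p = 0.00883), kept without each array in turn, and was higher in females by 1.27 in vehicle (adjusted p = 0.0204), a call lost without female vehicle replicate 2 (adjusted p = 0.0660) or 3 (adjusted p = 0.0626). Its female response of 0.74 missed the threshold (adjusted p = 0.229), and passed on the female groups alone (adjusted p = 0.0343) and with array weights (adjusted p = 0.00768). None of probes 1, 2 and 5 passed in any comparison, with male differences of 0.49, 0.41 and 0.71 and female differences of 0.60, 0.55 and 0.58. With array weights probes 1 and 2 passed in the female response (adjusted p = 0.0167 and 0.0177), and probe 2 did between the sexes in dexamethasone (adjusted p = 0.0430). The within-array difference of probe 3 from the mean of probes 1 and 2 was -0.56 to -0.23 in male vehicle, -0.15 to 0.52 in male dexamethasone, 0.18 to 0.61 in female vehicle and 0.60 to 0.83 in female dexamethasone. These are a description without a test; the ranges of male vehicle and male dexamethasone did not overlap, and those of the female groups overlapped slightly. With slide as a block probe 3 differed by 1.29 in males (adjusted p = 0.0680) and probe 4 by 1.81 (adjusted p = 0.0883), and on the male groups alone the adjusted p were 0.0924 and 0.0876. On the groups compared alone, the sex differences of probe 3 in vehicle (adjusted p = 0.0504) and in dexamethasone (adjusted p = 0.0505) and of probe 4 in vehicle (adjusted p = 0.104) were lost, and the female response of probe 3 was kept (adjusted p = 0.0158).

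Replicate numbers carried much of the spread within groups. Of 38 members measured on every array, 26 had the same replicate number highest in both male groups, 68.4% beside 45.4% of all genes, and 24 had it in both female groups, 63.2% beside 50.1%. In 14 members, 36.8%, replicate 2 was the highest array in all 4 groups, beside 4.62% of all genes. For replicates 1 and 3 no member did so, beside 4.72% and 3.09% of all genes. The 14 were C3, C4bpb, C6, C8a, C8b, C9, Cfd, F10, Masp1, Mbl1, Serpinc1, Serpind1, Serpinf2 and Vtn, and this pattern was noticed after the values were seen. C4bpb, the chain of C4b-binding protein that holds protein S, was at 3.07, 5.68 and 4.33 in male vehicle and at 3.34, 5.44 and 4.07 in male dexamethasone. It was at 3.55, 4.63 and 4.53 in female vehicle and at 3.30, 4.53 and 4.39 in female dexamethasone. The same order of replicates recurs in each group, while its differences in the 4 comparisons of groups were -0.08, -0.16, -0.12 and -0.21 log2 units. What the numbers stand for is not given in the labels.

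**Figure D4:**
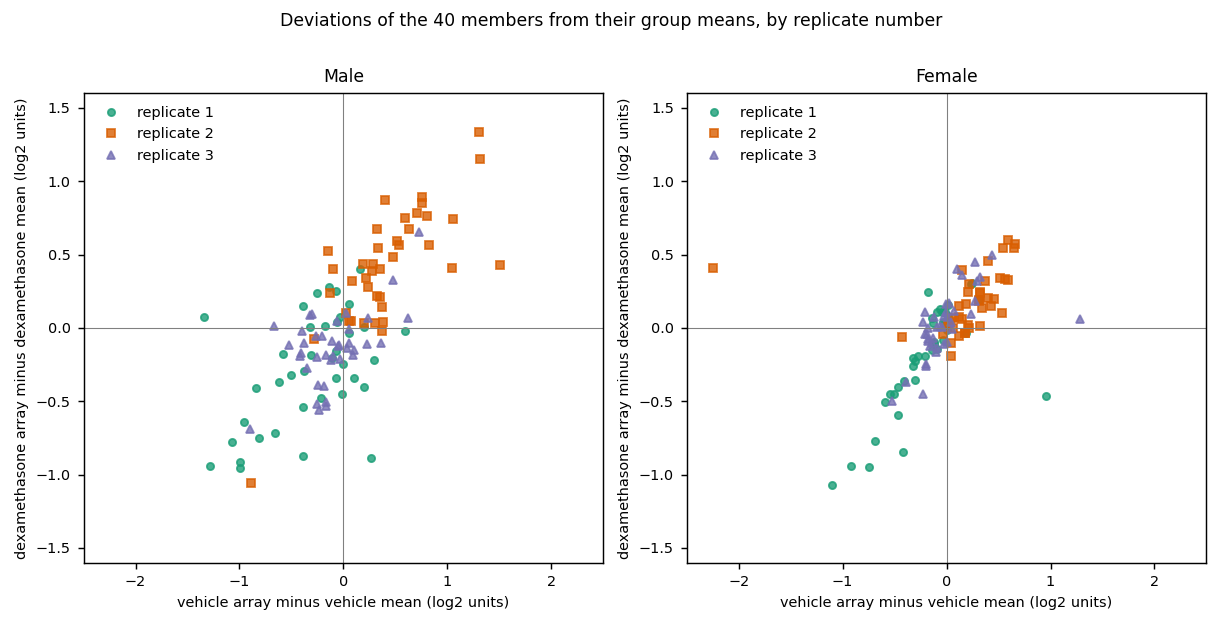
Each point is a member on 1 replicate number: the horizontal axis is the vehicle array minus the vehicle mean and the vertical axis the dexamethasone array minus the dexamethasone mean, both in log2 units, for males and females. Points run from lower left to upper right; the correlation over members was 0.50, 0.75 and 0.56 for male replicates 1 to 3 and 0.72, 0.20 and 0.60 for female ones.

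Related genes of the same systems that are not members were taken from a list of 53, of which 46 were tested: C1q, C4, receptors, fibrinogen chains, cofactors and inhibitors. In males 3 rose and 3 fell, in females 3 rose and none fell, 5 were higher and 4 lower in females in vehicle, and 1 was higher in dexamethasone. These are calls out of 46. Of all genes tested, 10.1% passed in the male response and 4.13% in the female response. Between the sexes 13.8% passed in vehicle and 2.9% in dexamethasone. Thbd, thrombomodulin, the membrane receptor through which thrombin activates protein C, was at -3.54, -2.79 and -4.56 in male vehicle, where 1 of 3 arrays was above background, and at -0.67, 1.12 and 0.25 in male dexamethasone. In females it was at -0.72, -0.76 and -1.74 in vehicle and at 2.00, 1.83 and 1.88 in dexamethasone. Dexamethasone arrays were far above vehicle arrays in both sexes. Thbd rose by 3.87 in males (SE 0.50, limma adjusted p = 0.00198) and by 2.98 in females (SE 0.50, adjusted p = 0.0105), and both passed with slide as a block (adjusted p = 0.0447 and 0.0348). In vehicle it was higher in females by 2.56 (adjusted p = 0.00934).

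A2m, alpha-2-macroglobulin, a broad protease inhibitor, was at 2.45, 2.59 and -2.36 in male vehicle and at 6.92, 7.83 and 4.16 in male dexamethasone, with replicate 3 the lowest in both. It rose by 5.41 (SE 1.20, limma adjusted p = 0.0205), lost without male dexamethasone replicate 1 (adjusted p = 0.0559) or 2 (adjusted p = 0.0757), and it was 3.78 without male vehicle replicate 3 and 6.48 without male dexamethasone replicate 3. In vehicle it was higher in females by 4.20 (adjusted p = 0.0421), a call lost without any one of 8 arrays. These were male vehicle replicate 3, male dexamethasone replicate 1 and all 6 female arrays (adjusted p from 0.0521 to 0.105), and without male vehicle replicate 3 the difference was 2.57. Tfpi2 was called lower in males but was not above background in either male group, so it has no fold.

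The other genes called lower fall outside the rule for named genes and were picked after their values were seen. Fgb, the fibrinogen beta chain, fell in males by 0.73 log2 units (limma adjusted p = 0.0222), lost without male dexamethasone replicate 2 (adjusted p = 0.0583) or 3 (adjusted p = 0.0714). The other fibrinogen chains, Fga and Fgg, did not fall. Their means were 7.65 and 7.92 in male vehicle and 7.93 and 8.27 in male dexamethasone, with overlapping arrays. Clu, clusterin, an inhibitor of the terminal complement complex, fell in males by 0.59 (limma adjusted p = 0.0301). That call was lost without male vehicle replicate 2, male dexamethasone replicate 2 or 3, female vehicle replicate 1 or female dexamethasone replicate 2 (adjusted p from 0.0530 to 0.0929). In vehicle 4 were called lower in females. Hrg, histidine-rich glycoprotein, which binds plasminogen, differed by -2.02 (limma adjusted p = 0.0108) and Clu by -0.71 (adjusted p = 0.0113), both kept without each of the 12 arrays in turn. Fgb differed by -0.78 (limma adjusted p = 0.0133), lost without female vehicle replicate 1 (adjusted p = 0.0593). Fga and Fgg, with means of 7.79 and 7.95 in female vehicle, were not lower there than in male vehicle. Vwf, described next, differed by -1.73 (limma adjusted p = 0.0183), and the call was lost without any female vehicle array (adjusted p from 0.0508 to 0.0578). Its male vehicle arrays were at -3.26, -5.16 and -3.99, and 1 of 3 was above background. All 3 female vehicle arrays, at -5.76 to -5.97, were above it. The male level is thus mostly background, and a lower level of Vwf in females is not established.

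In females the other rises were those of Vwf, von Willebrand factor, by 1.75 (SE 0.40, limma adjusted p = 0.0358), and F2rl3, a thrombin receptor, by 1.03 (SE 0.21, adjusted p = 0.0235). Vwf was at -5.76, -5.87 and -5.97 in female vehicle and at -3.78, -3.91 and -4.65 in female dexamethasone. Its call was lost without any female array or male dexamethasone replicate 3 (adjusted p from 0.0533 to 0.139), and that of F2rl3 without female vehicle replicate 1 or 3 or any female dexamethasone array (adjusted p from 0.0800 to 0.101). Vwf is an endothelial gene; of 7 endothelial markers measured, it alone passed in the female response, beside a Lyve1 difference of 2.90 without overlap that did not pass (adjusted p = 0.0667), with summed signals of 1.17 to 2.38 in female vehicle and 1.75 to 3.04 in female dexamethasone. In vehicle Serpine2, an inhibitor of thrombin and of plasminogen activators, was at least 1.73-fold higher in females (limma adjusted p = 0.00156), since no male vehicle array was above background. Serpinb2, plasminogen activator inhibitor 2, was higher by 2.11 (adjusted p = 0.00986), with 1 of 3 male vehicle arrays above background. Cd55, decay-accelerating factor, was higher in females by 1.85 in vehicle (adjusted p = 0.00267), where 1 of 3 male arrays was above background, and by 1.38 in dexamethasone (SE 0.27, adjusted p = 0.0225), lost without male dexamethasone replicate 2 or 3 or female dexamethasone replicate 2 or 3 (adjusted p from 0.0690 to 0.109).

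**Figure D5:**
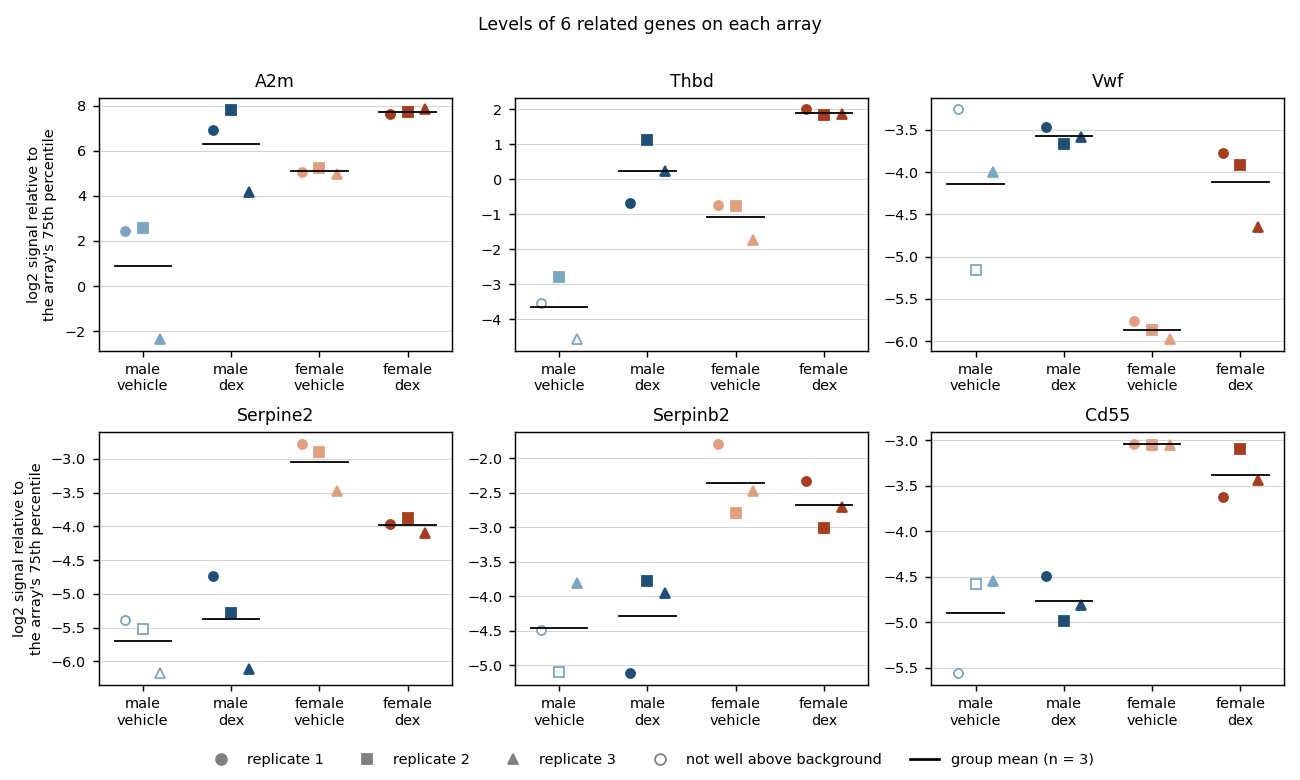
Log2 signal relative to the array's 75th percentile (vertical axis, a separate scale in each panel) of 6 related genes on each of the 12 arrays, with a line at each group mean and open symbols for arrays not well above background. Thbd runs from -4.56 to -2.79 in male vehicle to 1.83 to 2.00 in female dexamethasone.

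Promoters were read from RefSeq on build GRCr8, as 250 bases before and 50 after the gene's start, and 31 of the 40 members matched an entry. Motifs were searched on both strands. The members' share counts genes with a match in any of their entries. The share of all promoters counts entries of every gene, not of liver genes alone, so these shares differ in unit and were not tested. The full glucocorticoid response element, a pair of inverted hexamers, was in no member's window and in 0.0149% of all promoters. A single hexamer, AGAACA, which is part of the full element, was in 5 of 31 members, 16.1%, beside 20.7% of all promoters: F11, F13b, F2, Masp1 and Serpinf2. The C/EBP motif TTGCNNAA was in 10 of 31 members, 32.3%, beside 10.6% of all: C1r, C3, C4bpa, C6, C8a, C8b, F9, Klkb1, Kng1 and Serpinc1. The HNF1 motif was in no member and in 0.00299% of all, and the NF-kB motif was in F10, 3.23%, beside 1.53%. The 250 bases before the start of F11, the member with the largest response, are at chr16:53720252-53720501 on the plus strand of GRCr8; capitals mark the hexamer AGAACA, at -25 to -20 from the start.
F11 promoter: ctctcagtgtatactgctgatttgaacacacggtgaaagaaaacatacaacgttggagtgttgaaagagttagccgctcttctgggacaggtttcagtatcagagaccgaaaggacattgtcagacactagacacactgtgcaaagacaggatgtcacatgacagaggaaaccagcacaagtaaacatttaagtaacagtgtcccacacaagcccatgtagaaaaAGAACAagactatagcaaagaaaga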

How the data were processed

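Members were matched by the gene name of the file. The members, the lists of related genes and markers, and the motifs were chosen with earlier results of these data known. The member Kng1 keeps the file's name, although RefSeq now names that transcript Kng2; kininogen copies are alike, so its values are uncertain.

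Each deposited file holds, per the file headers, a spot intensity on a linear scale from Agilent Feature Extraction 9.5.3.1, with the background subtracted within the array and no scaling between arrays; the submitters' processing notes name version 9.5. The deposited value table of the series holds the same intensity values (540216 of 540216 entries equal). Probe positions are on rn3, per the file headers; without an annotation of that build, exon or UTR is not stated.

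Outlier spots by the scanner software were dropped, saturated ones stayed in, and spots of a probe averaged as log2 values. Each array's 75th percentile was subtracted. A probe was kept if at least 1 group had it well above background on each of its 3 arrays (30979 of 41012), and a gene was read from its brightest kept probe. All 12 arrays entered 1 limma 3.58.1 model (R 4.3.3) of 4 group means, with two-sided tests and Benjamini-Hochberg adjustment over 26543 genes; the fit was tested on simulated data. A difference is the dexamethasone level less the vehicle level, or the female less the male. No label ties the replicates to separate animals or cultures; p-values therefore reflect only how much these samples vary, and that variation may be technical. The number of arrays limits the precision.

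Same-numbered arrays of the 2 treatments deviated together within each sex over all genes (correlations of 0.27, 0.46 and 0.27 in males, 0.42, 0.26 and 0.34 in females), and those of the 2 sexes did so in dexamethasone (0.17, 0.17 and 0.20) but not in vehicle (0.11, 0.015 and 0.039). The number was therefore used as a block in alternative fits, while the main fit had no block and left the samples unpaired. Blocked values stand beside a result where they change it. The plain replicate block spanned all groups, so it also matched the sexes in vehicle, where the deviations did not go together. The block within each sex did not match the sexes.

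Values on every array are given for members past the threshold in at least 1 of 5 comparisons, and for the member with the smallest p in each role group without one. Related genes are named where they pass, at most 4 in a comparison by size. Related genes named outside this rule are said to be so; 1 related gene that passed is counted but its values are not reported here. Where no array of a group was above background, the bound "at least" sets the brighter mean against the higher of the probe's own level and the array's lowest level among probes well above background. Alternatives were other scalings, normexp with an offset of 50, filters, probe rules, slide and replicate blocks, array weights, fits on fewer groups and leaving out each array. Other parts of the arrays were not used here.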

Additional observations from a re-analysis of the deposited data

How the results depend on the processing

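The number of members past the threshold was small and moved with the processing. In males it was 1, and 2 with array median scaling, quantile normalization or only probes above background on all 12 arrays, 3 with no filter or the mean of probes, and 0 with the slide block or only the groups compared. In females it was 1, and 0 with array median scaling, quantile normalization, no filter or the slide block, 3 with only the groups compared and 5 with array weights. Between the sexes in vehicle it was 5, and 0 with the slide block, 3 with array weights and 3 with only the groups compared. In dexamethasone it was 2, and 0 with the slide block and 6 with array weights. Leaving out 1 array gave 1 to 2 members in males, 0 to 2 in females, 3 to 8 between the sexes in vehicle and 1 to 3 in dexamethasone. The interaction gave 0 under each alternative run. The cause of these moves was not tested. Of all 26543 genes in males, array median scaling called 1015 higher and 2167 lower, and quantile normalization 2276 and 1131. In females these called 574 and 354, and 374 and 187. The slide block called 188 and 284 in males and 215 and 85 in females. Between the sexes it called 46 and 87 in vehicle and 8 and 14 in dexamethasone. In vehicle normexp called 7 members, and 1527 genes higher and 10856 lower in females. Counts under the other settings stand without those of all genes.

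The plain replicate block treats same-numbered arrays of all groups as matched. With that block the counts were 2 in males, 4 in females, 10 between the sexes in vehicle and 5 in dexamethasone. The numbers did not pair the sexes in vehicle by the check of deviations. A replicate block within each sex, chosen after seeing the data, gave 5 members in males and 3 in females. Over all 26543 genes it called 1909 higher and 2264 lower in males, and 1136 higher and 657 lower in females.

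Of 15 differences of members and Masp1 probes past the threshold, none changed direction under any alternative run. The related genes and the second F5 probe were not part of that count. The median of all genes in the male response was -0.07 and moved to -0.25 with normexp and to 0.04 with quantile normalization, and between the sexes in vehicle it moved from -0.06 to -0.38 and 0.09. Signal over background limited F11, Thbd, Vwf, Serpine2 and the second F5 probe in male vehicle.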
